A study of Mus musculus with 3 samples.

Results

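The genes described here are the ADAM and ADAMTS metalloproteases of the mouse testis. Every gene whose symbol is Adam or Adamts followed by a number and optional letters was taken, and pseudogenes, antisense genes and the Adamtsl relatives were left out. This gave 52 genes of the 36593 in the count tables, 33 of them ADAM genes and 19 ADAMTS genes. By the roles known for them, 21 are ADAMs of sperm and the male reproductive tract (called reproductive ADAMs here), 9 are sheddases and 3 are non-catalytic ADAMs of nervous tissue. Of the 52 genes, 50 were listed for all 3 libraries, whereas Adam7 and Adamts13 were listed only for the knockout library, with 2 UMIs each. A total of 47 genes had at least 100 UMIs over the kept cells. The other 5 were Adam7, Adamts13, Adamts16 with 21 UMIs, Adam28 with 29 and Adamts18 with 54, and they are given no further values.

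Single-cell RNA sequencing was performed on testicular cells of C57BL/6 mice, with 1 droplet library per condition and 3 mice pooled in each. The Tomato-negative library came from Ddx4-creER; R26tdTomato mice, 8 weeks old by the sample labels and 4 weeks after tamoxifen, whose labelled germ cells were removed by sorting. The cKO library came from mice of genotype Amh-cre; Scf fl/fl, in which stem cell factor is deleted by a Cre that is active in Sertoli cells, and the control library from Scf fl/fl mice, both at an age of 6 weeks. Haploid spermatids were depleted from both by flow cytometry. The Tomato-negative library thus differs from the others in genotype, age and sort together, whereas the cKO and control libraries share age and sort. No test between genotypes was possible with 1 library each. No class was named Sertoli-like in the cKO or control library. A class of the cells that the Cre acts in is thus seen in the Tomato-negative library alone. The cKO and control cells named vascular smooth muscle-like came from a cluster of 233 cells. In it, Sertoli markers scored 0.858 of the vascular smooth muscle score. That class may hold both kinds of cells in the cKO and control libraries, which was not tested.

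ADAM proteins sit in the cell membrane and carry a prodomain, a metalloprotease-like domain and a disintegrin domain. Some, such as ADAM10 and ADAM17, cut other membrane proteins and release their outer part, whereas many testis ADAMs lack the zinc-binding residues of a working protease and act on the sperm surface. Fertilin, the founding pair, is made of an ADAM1 and an ADAM2 chain, and mice without Adam2 or Adam3 have sperm that do not migrate into the oviduct. ADAMTS proteins are secreted, bind extracellular matrix through thrombospondin repeats, and cleave proteoglycans such as versican and aggrecan, the ends of procollagens, or von Willebrand factor.

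Germ and somatic cells were clustered with the member genes left out of the clustering, and each class was named from its markers. The named cells comprised 3516 germ and 1441 somatic cells of the Tomato-negative library, 2492 and 4227 of the cKO library, and 4644 and 911 of the control library. The kept cells held 87927908 UMIs in the Tomato-negative, 66941050 in the cKO and 79286222 in the control library. Levels are given as counts per 1000000 UMIs of a class (CPM), with exact Poisson 95% intervals that cover counting error only. The counts come from the 3′ ends of transcripts, so that levels of different genes carry no factor for length. Libraries shared 9 to 15 cell barcodes in each pairing. Late germ cells, from late spermatocytes onward, made up 18.7% of kept cells and 49.7% of their UMIs in the Tomato-negative library, 0.513% and 1.88% in the cKO library, and 21.5% and 63.5% in the control library. In the cKO library only 10 early spermatocyte-like, 16 late spermatocyte-like and 20 spermatid-like cells were found, too few for a comparison by class.

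Several of the reproductive ADAMs lie beside each other. On chromosome 8 of GRCm38, Adam18, Adam3, Adam5 and Adam32 lie with the sheddase gene Adam9 between 24602246 and 25016927. Another group of Adam24, Adam25, Adam20 and Adam39 lies between 40675077 and 40827037, and another of Adam26b, Adam26a and Adam34 between 43519762 and 43710049. Adam1b and Adam1a are neighbours on chromosome 5, Adam6b and Adam6a on chromosome 12, Adamts1 and Adamts5 on chromosome 16, and Adamts15 and Adamts8 on chromosome 9. Of the 21 reproductive ADAMs, 15 have their coding sequence in 1 exon, against 0 of the 31 other members. Some neighbours share identical stretches of 90 bases in their transcripts. As a share of all distinct 90-base stretches of the smaller gene, these were 30.6% for Adam1a and Adam1b. The share was 18.4% for Adam20 and Adam39, 17.5% for Adam20 and Adam25 and 16.1% for Adam26a and Adam26b. It was 15.2% for Adam25 and Adam39 and 15.2% for Adam6a and Adam6b. How the authors' counting split reads between such copies is not known, so the separate values of these genes are uncertain.

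RefSeq promoters, 250 bases before to 50 bases after a start in GRCm38.p6, matched 10 of the 21 reproductive ADAMs and 17 of the other 31 genes, these 17 with 19 promoters. The 10 all have a coding sequence in 1 exon, and Adam2, Adam3, Adam5, Adam18 and Adam32, whose coding sequence spans 19 to 22 exons, are not among them. The letters CG, which read the same on both strands, occurred 0 to 4 times in these 10 promoters (median 1) and 2 to 44 times in those of the other members (median 22). All 10 promoters of the reproductive ADAMs had 4 or fewer, against 1 of the 19 others, and 38.0% of all 32851 promoters of the same length had 4 or fewer. GC content had a median of 39.5% in the 10 promoters and 66.0% in the other members. The 150 bases before the start are shown for 3 germ cell ADAMs and 3 broadly or somatically expressed members, since these genes recur below, with each CG in capitals.
Adam1b, chr5:121503436-121503585, minus strand: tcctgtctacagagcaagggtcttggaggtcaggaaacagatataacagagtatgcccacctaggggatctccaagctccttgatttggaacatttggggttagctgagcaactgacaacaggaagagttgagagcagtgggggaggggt
Adam29, chr8:55906965-55907114, minus strand: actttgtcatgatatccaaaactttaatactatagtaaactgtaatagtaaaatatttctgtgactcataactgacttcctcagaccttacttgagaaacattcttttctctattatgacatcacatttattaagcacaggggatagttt
Adam26b, chr8:43528138-43528287, minus strand: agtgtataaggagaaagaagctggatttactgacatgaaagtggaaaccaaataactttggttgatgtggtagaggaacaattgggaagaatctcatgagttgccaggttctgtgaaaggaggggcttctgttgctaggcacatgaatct
Adam10, chr9:70678832-70678981, plus strand: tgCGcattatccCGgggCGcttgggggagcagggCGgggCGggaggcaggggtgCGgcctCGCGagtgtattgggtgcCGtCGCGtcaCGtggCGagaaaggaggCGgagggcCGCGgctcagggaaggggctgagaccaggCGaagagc
Adamts2, chr11:50601935-50602084, plus strand: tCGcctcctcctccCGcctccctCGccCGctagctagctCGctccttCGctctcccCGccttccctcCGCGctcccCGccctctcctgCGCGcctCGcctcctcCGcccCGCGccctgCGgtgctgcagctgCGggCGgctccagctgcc
Adamts1, chr16:85803114-85803263, minus strand: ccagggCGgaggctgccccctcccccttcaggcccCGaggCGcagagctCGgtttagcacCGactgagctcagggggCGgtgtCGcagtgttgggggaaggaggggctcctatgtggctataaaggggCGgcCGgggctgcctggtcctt
In these windows the germ cell genes Adam1b, Adam29 and Adam26b had 0 CG dinucleotides each, and Adam10 had 17, Adamts2 19 and Adamts1 9.

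The first comparison asked which members were higher in germ cells than in somatic cells over the 3 libraries. Of the 20 reproductive ADAMs tested, 18 were higher in germ cells, beside 30.3% of all genes tested, and Adam1a and Adam4 did not pass. Most sheddases and most ADAMTS genes were higher in somatic cells, beside 19.9% of all genes tested. The germ cell count depended on the settings named in the next paragraph. The summed level of the reproductive ADAMs was 1595, 92.4 and 2060 CPM in the germ cells of the Tomato-negative, cKO and control libraries, against 145, 7.45 and 120 CPM in their somatic cells. The sum was higher in germ cells in all 3 libraries, but that of cKO germ cells lay below the somatic sums of both other libraries. It held 3629 UMIs, mostly from 16 late spermatocyte-like and 20 spermatid-like cells. Only 57, 82 and 7 UMIs came from 1125 undifferentiated and 1227 differentiating spermatogonia-like cells and 94 cells passing into early spermatocytes. These classes had 3.85, 3.69 and 7.50 CPM, so cKO spermatogonia did not lie above cKO somatic cells. The summed level of the 19 ADAMTS genes was 20.01, 42.3 and 19.8 CPM in germ cells, against 541, 1625 and 1311 CPM in somatic cells, with no overlap between the groups. Counts summed over the germ and the somatic cells of each library were compared with edgeR's quasi-likelihood test, with the library as a block, and p-values were Benjamini-Hochberg adjusted over 23295 genes.

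Of the 52 members, 47 passed the filter on low counts and were tested. A total of 21 were higher in germ cells, beside 30.3% of all genes tested, and 19 were higher in somatic cells, beside 19.9% of all genes tested. The 21 comprised 18 of the 20 reproductive ADAMs tested, Adam22, Adamts19 and Adamts20. The 19 comprised Adam8, Adam9, Adam10, Adam12, Adam19, Adam33, Adam23 and 12 ADAMTS genes. The other 7 (Adam1a, Adam4, Adam11, Adam15, Adam17, Adamts3 and Adamts17) did not pass the threshold. The median log2 germ over somatic difference was 3.40 for the reproductive ADAMs, -2.84 for the 8 sheddases tested and -4.78 for the 16 ADAMTS genes tested. The germ cell count rested on the cell and library settings. It was 3 with cells of over 3500 detected genes left out, as the limit of 3500 unique counts in the study's methods was taken here. It was 7 without the control library and 4 without the library as a block. The somatic count was 18, 14 and 18 under these settings. At the limit of 3500 the summed reproductive ADAM level of germ cells averaged 266 CPM, against 1249 CPM here.

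The 10 members with the largest difference toward germ cells were reproductive ADAMs. Adam26b, a testase found in mouse testis, was higher by 4.73 ± 0.94 on the log2 scale (SE of the fit, adjusted p = 0.00149 by edgeR). Adam2, the beta chain of fertilin, had 206, 10.8 and 273 CPM in germ cells of the Tomato-negative, cKO and control libraries, and was higher in germ cells by 4.31 ± 0.47 (adjusted p = 2.57e-05 by edgeR). Adam3, also called cyritestin, had 478, 27.7 and 584.5 CPM in the germ cells of these libraries, against 43.4, 0.670 and 32.4 CPM in their somatic cells, and was higher by 4.26 ± 0.46 (adjusted p = 2.15e-05 by edgeR). Adam34 and Adam1b were higher by 4.19 ± 1.12 and 4.19 ± 0.51. Adam32, Adam18, Adam39, Adam5 and Adam24 were higher by 4.07 ± 0.43, 3.97 ± 0.51, 3.78 ± 1.06, 3.57 ± 0.46 and 3.46 ± 0.85, all with adjusted p of 0.0116 or less by edgeR. Within each library Adam3 was higher in germ cells, but its level in cKO germ cells lay below that in the somatic cells of the other libraries, so that the groups overlapped across libraries. Of the 1087 Adam3 UMIs of cKO germ cells, 737 came from 16 late spermatocyte-like and 333 from 20 spermatid-like cells.

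The 10 members with the largest difference toward somatic cells were all ADAMTS genes. Adamts5, an aggrecanase that also cleaves versican, had a log2 difference of -8.86 ± 0.55 (adjusted p = 1.49e-06 by edgeR). It had 0.413, 2.19 and 1.05 CPM in the germ cells of the Tomato-negative, cKO and control libraries, against 161, 990.4 and 546 CPM in their somatic cells. Adamts12, which cleaves cartilage oligomeric matrix protein, had a difference of -8.65 ± 1.01 and only 5 UMIs in all germ cells. Adamts1, a versican-cleaving enzyme, had a difference of -7.81 ± 0.60, and Adamts15 one of -7.29 ± 0.95. Adamts4, Adamts9, Adamts2, Adamts6, Adamts14 and Adamts8 had differences between -6.23 and -4.51.

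**Figure D1:**
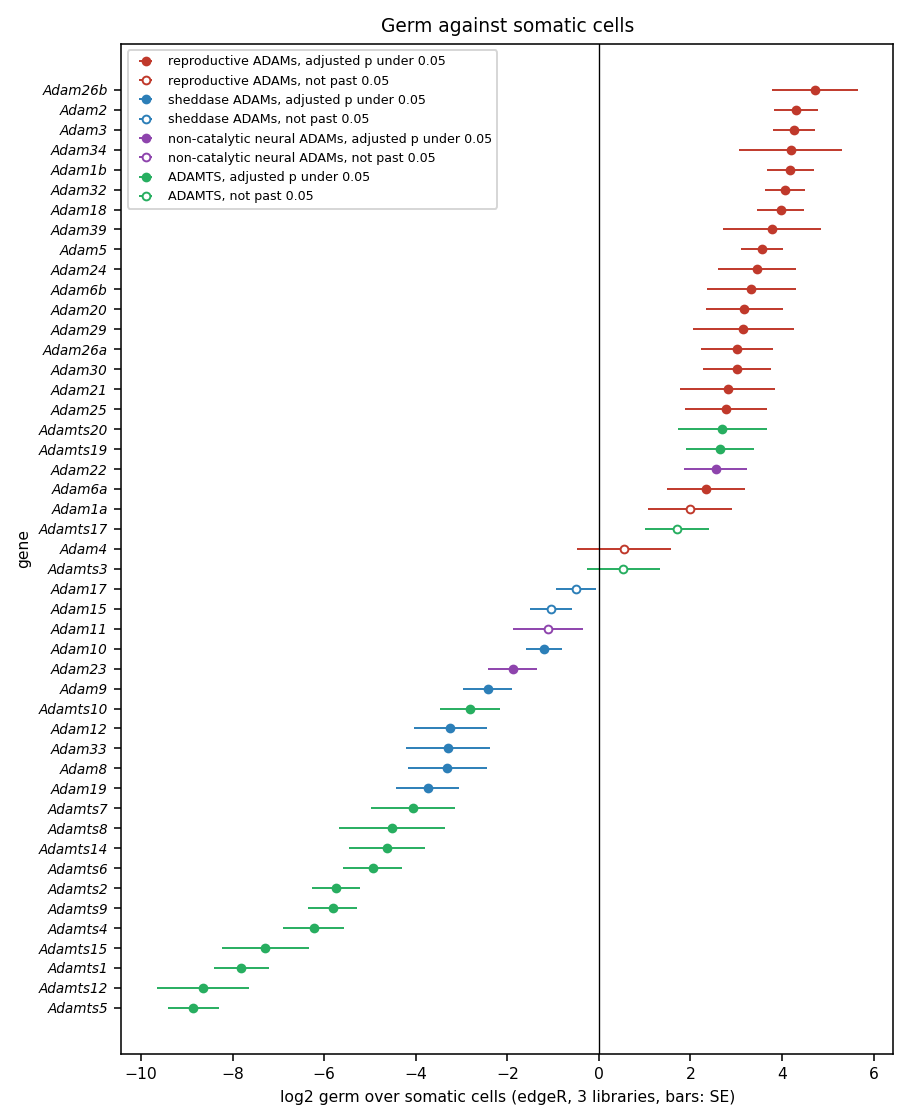
Log2 difference of germ over somatic cells for the 47 members tested (x axis, edgeR over 3 libraries, bars are the SE), with 1 gene per row and filled points for an adjusted p under 0.05. Reproductive ADAMs lie right of 0, up to 4.73 for Adam26b, and most ADAMTS genes lie left of 0, down to -8.86 for Adamts5.

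Within the germ cells, 7 reproductive ADAMs (Adam3, Adam5, Adam32, Adam2, Adam1b, Adam30 and Adam18) were high from the late spermatocyte stage on. Their summed level with the other reproductive ADAMs, taken from undifferentiated spermatogonia onward, was 92.2, 115, 116, 303, 2821, 2537 and 1027 CPM in the 7 germ cell classes of the Tomato-negative library, the last of these being round and elongating spermatids. In the control library it was 61.5, 80.0, 105, 157, 2969 and 3045 CPM, with round and elongating spermatids in 1 class. In the 3 cKO classes with enough cells, undifferentiated and differentiating spermatogonia and those passing into early spermatocytes, it was 3.85, 3.69 and 7.50 CPM. The sum was thus highest in late spermatocytes and spermatids of both libraries that held enough of them.

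Adam3 had 834 CPM (95% interval 824 to 844) in late spermatocyte-like cells of the Tomato-negative library and 70.4 CPM in early ones, a ratio of 11.8 (8.76 to 16.4). In the control library Adam3 had 807 CPM (798 to 816) in late and 34.8 CPM in early spermatocyte-like cells, a ratio of 23.2 (18.0 to 30.3). Adam5, which forms complexes with ADAM2 and ADAM3 on mouse sperm, had 620 and 708 CPM in the late spermatocyte-like cells of the Tomato-negative and control libraries. Adam32 had 499 and 569 CPM there, Adam2 405 and 459, Adam1b 190 and 165, Adam30 139 and 127, and Adam18 131 and 133. The order of these 7 genes was the same in both libraries except that Adam30 and Adam18 changed places. At least 1 UMI of Adam3 was seen in 99.8% of late spermatocyte-like cells of the Tomato-negative library and 96.3% of those of the control library, at median depths of 74285 and 47119.5 UMIs per cell. After thinning to 1000 UMIs per cell these shares were 56.3% and 48.3%, against 7.82% in Sertoli-like cells of the Tomato-negative library and 3.24% in myoid-like cells of the control library.

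These 7 genes then parted in the spermatids. In round spermatid-like cells of the Tomato-negative library Adam3 kept 0.94 of its late spermatocyte level (0.91 to 0.96), Adam5 0.85 and Adam32 0.83, whereas Adam2 kept 0.52, Adam1b 0.55, Adam18 0.54 and Adam30 0.61. In the round to elongating class of the control library the ratio was 1.23 for Adam3 (1.20 to 1.26), 0.89 for Adam5 and 0.84 for Adam32, against 0.36 for Adam2, 0.51 for Adam1b, 0.59 for Adam18 and 0.67 for Adam30. In CPM, Adam1b and Adam2, the fertilin chains that are abundant here, were thus lower in spermatids in both libraries. The CPM of Adam3 was slightly lower in the Tomato-negative and higher in the control library. In elongating spermatid-like cells of the Tomato-negative library Adam3 had 412 CPM and Adam2 31.8 CPM, which were 0.53 (0.49 to 0.56) and 0.15 (0.12 to 0.19) of their round spermatid levels. CPM is a share of UMIs, and depth fell between these classes. Median depths were 74285 UMIs in late spermatocyte-like, 44293 in round and 3424 in elongating spermatid-like cells of the Tomato-negative library. In the control library they were 47119.5 in late spermatocyte-like and 26377.5 in round to elongating spermatid-like cells. The ratios therefore do not give the change in UMIs per cell.

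The other 13 reproductive ADAMs were nearly absent before the spermatid stage. Adam24, a sperm surface testase, had 38.0 CPM in round spermatid-like cells of the Tomato-negative library, against 0.399 CPM in late spermatocyte-like cells, a ratio of 95.3 (54.9 to 181). In the control library Adam24 had 74.8 CPM in the round to elongating class, from 821 UMIs, against 0.101 CPM from 4 UMIs in late spermatocyte-like cells, a ratio of 737 (287 to 2713). Adam26b had 45.7 against 0.491 CPM in the Tomato-negative and 52.1 against 0.101 CPM in the control library. Adam29 had 40.1 against 0.430 CPM and 48.2 against 0.0761 CPM, the last of these from 3 UMIs. Over the 13 genes the ratio of spermatid to late spermatocyte level lay between 65.7 for Adam21 and 242 for Adam34 in the Tomato-negative library, and between 114 for Adam4 and 1688 for Adam39 in the control library. The highest ratios rest on 1 to 3 UMIs in late spermatocytes, and that of Adam39 in the control library has an interval of 302 to 66830.

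Among these 13 genes the round and elongating stages could be told apart in the Tomato-negative library. Adam25, Adam20, Adam26b, Adam29, Adam39 and Adam26a were lower in elongating than in round spermatid-like cells, with ratios of 0.22, 0.23, 0.25, 0.29, 0.33 and 0.35, and so was Adam24 at 0.59 (0.44 to 0.78). Adam4 was higher in CPM in elongating cells, at 21.3 against 13.2 CPM, a ratio of 1.62 (1.15 to 2.25). Elongating cells were far shallower, with a median depth of 3424 UMIs against 44293 UMIs in round ones. CPM is a share of UMIs, so the higher CPM of Adam4 does not show more UMIs per cell. For Adam1a, Adam6a, Adam6b, Adam21 and Adam34 the interval of the ratio held 1, so no order could be given. Adam6a and Adam6b, of which at least 1 is needed for normal male fertility in the mouse, had 22.1 and 17.1 CPM in elongating and 17.5 and 12.1 CPM in round spermatid-like cells. The 6 genes with the lowest ratios include the sequence-sharing pairs named above, so that they are not independent of each other.

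**Figure D2:**
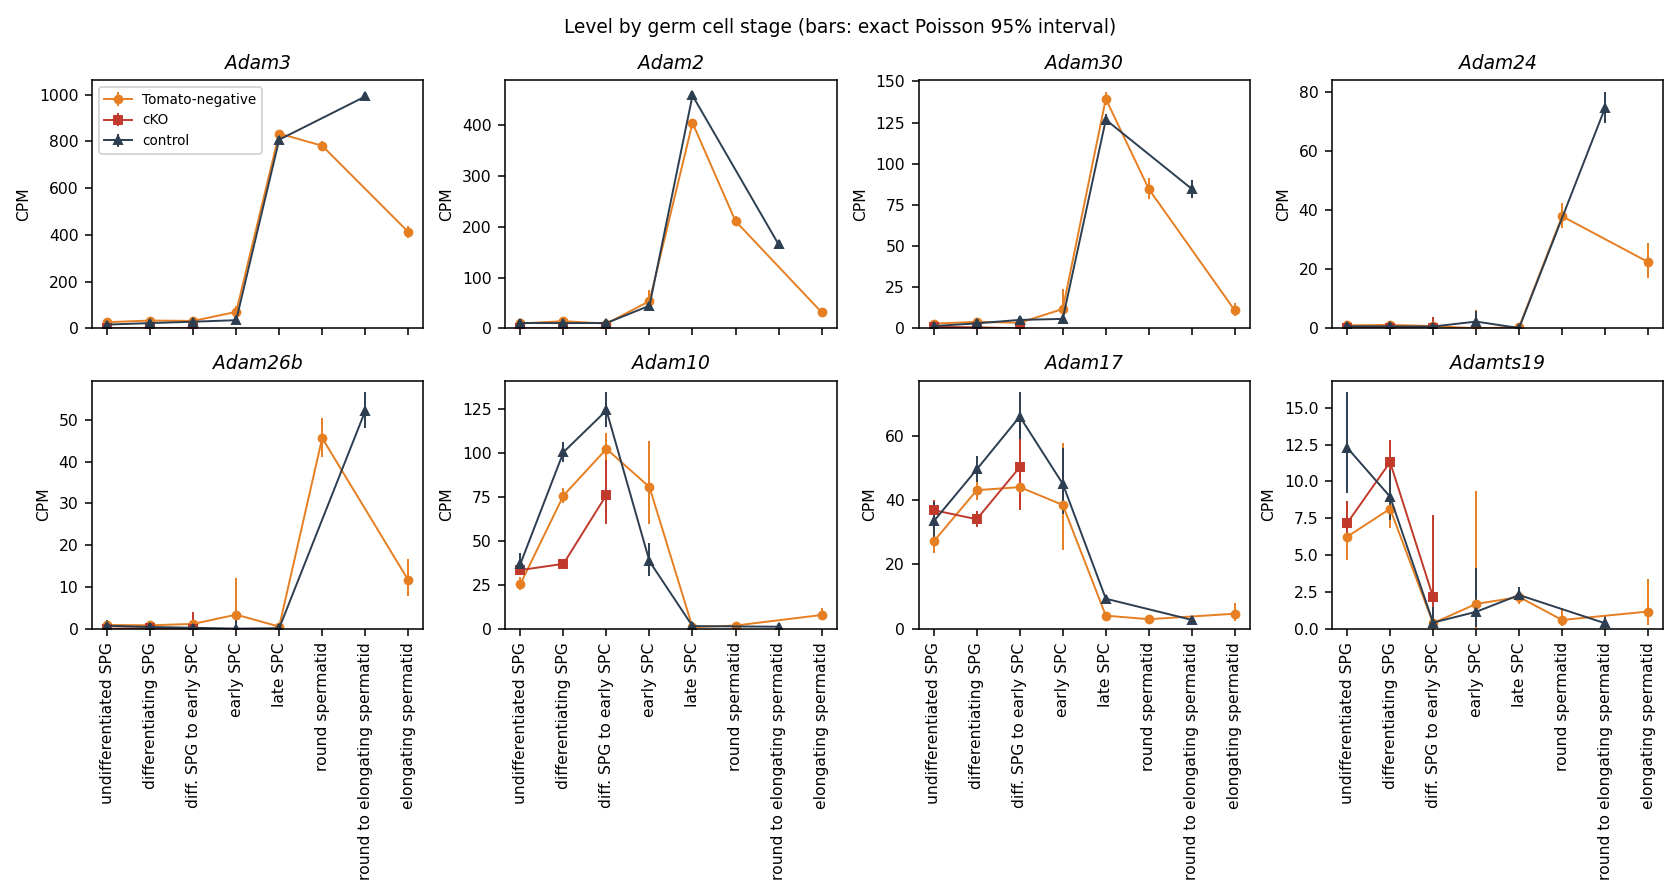
Level in CPM (y axis, linear) by germ cell stage (x axis, from undifferentiated spermatogonia to elongating spermatids) for selected members, with a line per library and bars for the exact Poisson 95% interval. Adam3 and Adam2 are high from late spermatocytes, Adam24 appears in spermatids, and Adam10 is high in spermatogonia and at 0.829 CPM in late spermatocytes of the Tomato-negative library.

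Transcripts of the late germ cell ADAMs were also counted in cells of every other class. Adam3 was at 15.1 to 70.4 CPM in the other classes of the Tomato-negative and control libraries with at least 30 cells, and at 0 to 1.07 CPM in those of the cKO library. In Sertoli-like cells of the Tomato-negative library Adam3 had 59.5 CPM and was seen in 35.3% of cells, and in immune-like cells of the control library it had 56.9 CPM. Late germ cells held 49.7%, 1.88% and 63.5% of the UMIs of kept cells in the Tomato-negative, cKO and control libraries. Droplet libraries carry free RNA, and its part in these values was not tested, so levels of the late germ cell ADAMs outside late germ cells are not read as expression.

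Among the sheddases, Adam10, Adam15, Adam17 and Adam9 were present in spermatogonia and fell in CPM at the late spermatocyte stage, the opposite of the reproductive ADAMs. Adam10, the alpha-secretase that releases the outer part of Notch and other receptors, had 75.7 CPM in differentiating spermatogonia-like cells of the Tomato-negative library and 100.3 CPM in those of the control library. In late spermatocyte-like cells it had 0.829 and 1.45 CPM, and the ratio to early spermatocyte-like cells was 0.010 (0.0062 to 0.017) and 0.038 (0.026 to 0.055). Adam15 had 0.767 and 0.634 CPM in late spermatocyte-like cells, against 21.8 and 9.14 CPM in early ones. Adam15 was higher again in spermatids, at 7.30 CPM in the round class of the Tomato-negative library, a ratio to late spermatocytes of 9.51 (5.89 to 15.8), and at 4.83 CPM in the control library, a ratio of 7.62 (4.65 to 12.8). Adam17, which releases tumour necrosis factor and ligands of the epidermal growth factor receptor, fell less, to 4.05 and 9.34 CPM, against 38.6 and 45.1 CPM in early spermatocyte-like cells. CPM is a share of UMIs, and late spermatocyte-like cells were far deeper. Their median depths were 74285 and 47119.5 UMIs, against 5870 and 4814 UMIs in early ones. In the Tomato-negative library Adam17 had 132 UMIs in 485 late and 23 UMIs in 97 early spermatocyte-like cells. Its count per cell did not fall there. Of Adam10, Adam15 and Adam17, only Adam10 passed the germ against somatic test, with a log2 difference of -1.20 ± 0.40 (adjusted p = 0.0251 by edgeR). That difference is for all germ cells summed, late ones included. In the class between differentiating spermatogonia and early spermatocytes Adam10 had 102, 76.1 and 124 CPM in the Tomato-negative, cKO and control libraries. Its highest somatic values there were 154, 79.7 and 79.7 CPM. Adam15 and Adam17 had differences of -1.05 ± 0.46 (adjusted p = 0.0778) and -0.50 ± 0.43 (adjusted p = 0.350) by the same edgeR test.

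In the somatic cells the sheddases differed by class. Adam15 was highest in endothelial-like cells of the Tomato-negative library, at 244 CPM (207 to 286), where Adam10 had 154 CPM. Adam12, a sheddase of heparin-binding growth factors known from muscle and bone development, was at 43.2, 45.8 and 44.7 CPM in Tcf21 stromal-like cells of the Tomato-negative, cKO and control libraries, values whose intervals overlap. Adam12 was at or below 5.74 CPM in every other class except cKO Leydig-like cells, where it had 25.1 CPM. Adam19 was highest in immune-like cells, at 24.9, 66.4 and 43.5 CPM, followed by Tcf21 stromal-like cells at 19.02, 17.6 and 19.2 CPM. The intervals of these classes overlapped in the Tomato-negative and control libraries, so only the cKO library set them apart. Adam9 was at 12.6 to 42.5 CPM over the somatic classes, the highest value being that of Sertoli-like cells. Adam8, known from leukocytes, had 11.8 CPM in Sertoli-like cells and 18.9 CPM in cKO immune-like cells. Sertoli-like cells had 194 CPM of all sheddases summed, of which Adam10 made up 92.0 CPM.

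The non-catalytic ADAMs, which act as receptors or ligands at synapses, had separate patterns. Adam23 had 102, 98.3 and 76.6 CPM in the Tcf21 stromal class and 148 CPM in cKO Leydig-like cells, and also 13.4, 19.9 and 16.9 CPM in undifferentiated spermatogonia-like cells. Over all germ and somatic cells Adam23 was higher in somatic cells, with a log2 difference of -1.88 ± 0.54 (adjusted p = 0.0123 by edgeR). Adam22, which binds LGI proteins in the brain, was at 8.11, 7.77 and 9.57 CPM in undifferentiated and 10.8, 5.18 and 12.4 CPM in differentiating spermatogonia-like cells, and at 6.73 CPM or less in somatic classes. It was higher in germ cells by 2.55 ± 0.69 on the log2 scale (adjusted p = 0.00937 by edgeR). Adam11 was highest in vascular smooth muscle-like cells of the Tomato-negative and cKO libraries, at 20.2 and 18.2 CPM. It had 5.14 CPM (0.130 to 28.6) in those of the control library, from 1 UMI.

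**Figure D3:**
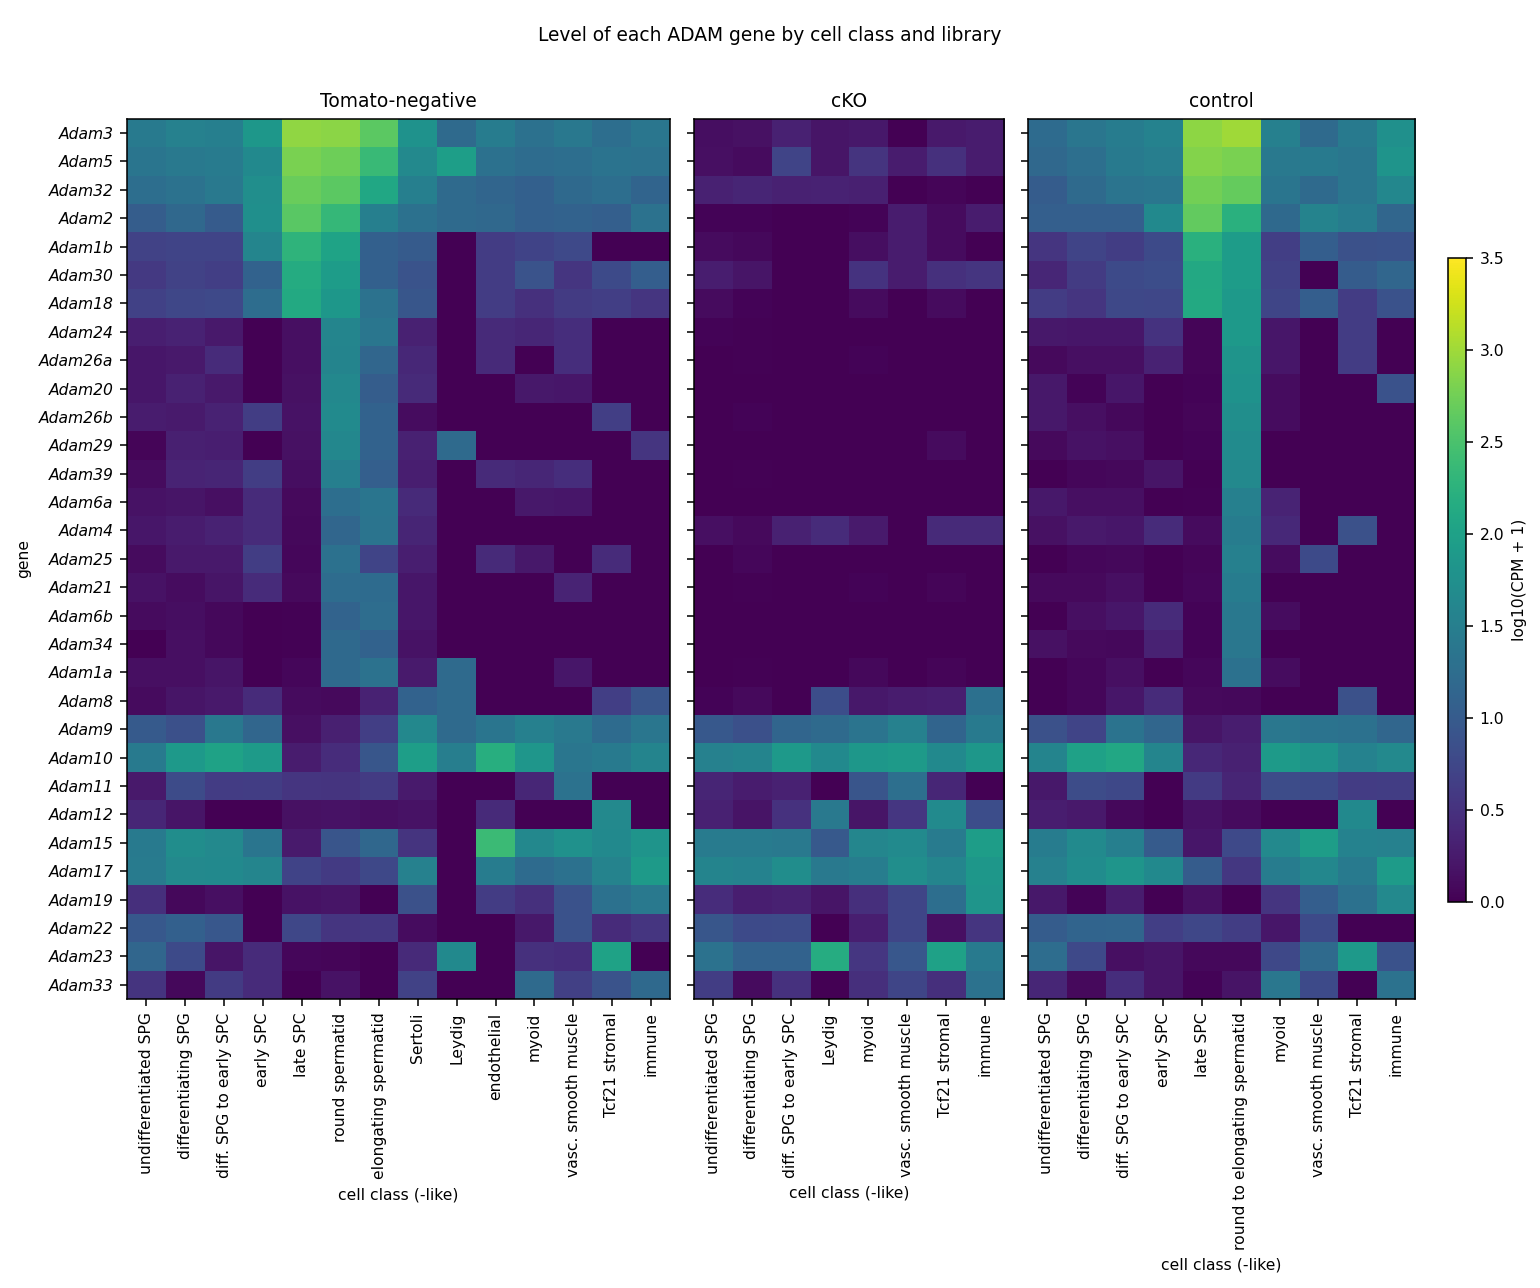
Level of each ADAM gene with at least 100 UMIs (rows) by cell class (columns) in the Tomato-negative, cKO and control libraries, coloured by log10(CPM + 1). The 7 genes of the top rows are bright from late spermatocytes on, the next 13 in spermatids, and the sheddases in spermatogonia and somatic classes.

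The ADAMTS genes divided the somatic classes among them. Summed over the 19 genes, their level was 2527, 2072 and 2912 CPM in the Tcf21 stromal class of the Tomato-negative, cKO and control libraries, 1392, 1142 and 1203 CPM in the vascular smooth muscle class, and 976, 1720 and 1283 CPM in myoid-like cells. Endothelial-like cells, which formed a class in the Tomato-negative library alone, had 965 CPM. Sertoli-like cells had 30.7 CPM, and immune-like cells 49.8, 209 and 40.1 CPM. The Tcf21 stromal class was highest in all 3 libraries, and the order of vascular smooth muscle-like and myoid-like cells was not the same in each. That first rank rested on Adamts5, which made up 1806, 1542 and 2344 CPM of the Tcf21 stromal sums. Without this gene the vascular smooth muscle class lay above the Tcf21 stromal class in each library.

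Of the proteoglycan-cleaving enzymes, Adamts5 had the highest level of the ADAMTS genes in the Tcf21 stromal class of each library. It had 1806 (1698 to 1918), 1542 (1515 to 1569) and 2344 (2177 to 2519) CPM in the Tcf21 stromal class of the Tomato-negative, cKO and control libraries, with a UMI in 97.5%, 93.9% and 92.2% of cells. In myoid-like cells Adamts5 had 263, 911 and 447 CPM and in the vascular smooth muscle class 203, 233 and 154 CPM, against 2.23 CPM in Sertoli-like cells. Adamts1 was highest in the vascular smooth muscle class, at 901 (856 to 949), 613 (568 to 659) and 802 (681 to 938) CPM. It had 466 CPM in endothelial-like cells, 384, 199 and 192 CPM in the Tcf21 stromal class and 160.0, 216 and 147 CPM in myoid-like cells. The neighbouring genes Adamts1 and Adamts5 thus had their highest levels in different classes in each library. Adamts9 was highest in endothelial-like cells at 322 CPM (279 to 369). Adamts4 had 83.2, 65.9 and 30.8 CPM in the vascular smooth muscle class and 31.4, 100.5 and 49.6 CPM in myoid-like cells. Adamts15 was at 6.92 to 38.3 CPM and Adamts8 at 0 to 31.4 CPM over the myoid, vascular smooth muscle and Tcf21 stromal classes of the 3 libraries.

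The procollagen peptidases and the remaining genes followed. Adamts2, which trims the amino end of fibrillar procollagens, was highest in myoid-like cells at 291 (264 to 320), 184 (176 to 191) and 340.4 (321 to 361) CPM, with 156, 95.7 and 153 CPM in the Tcf21 stromal class. Adamts14, a related enzyme, was at 8.65, 7.42 and 6.39 CPM in the Tcf21 stromal class and at 22.0, 15.6 and 25.7 CPM in the vascular smooth muscle class. The control values of Adamts14 rest on 2 and 5 UMIs in these classes. Adamts3, of the same group, was at 3.19 CPM or less in every class. Of the enzymes that cleave cartilage oligomeric matrix protein, Adamts7 was highest in myoid-like cells at 26.0, 29.8 and 39.1 CPM, and Adamts12 had 14.1, 46.8 and 51.4 CPM in the vascular smooth muscle class and 15.6, 24.5 and 28.7 CPM in the Tcf21 stromal class. Adamts6 had 51.3, 41.0 and 40.0 CPM in myoid-like cells. Adamts10, known for binding fibrillin microfibrils, had 39.0, 57.8 and 81.3 CPM there.

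A few ADAMTS genes were counted in germ cells. Adamts19 had 6.24, 7.16 and 12.3 CPM in undifferentiated and 8.14, 11.3 and 8.96 CPM in differentiating spermatogonia-like cells of the Tomato-negative, cKO and control libraries, and was higher in germ than in somatic cells by 2.64 ± 0.74 on the log2 scale (adjusted p = 0.0109 by edgeR). Adamts20 was higher in germ cells by 2.70 ± 0.97 (adjusted p = 0.0359 by edgeR), at low levels of 0.533, 1.35 and 0.635 CPM over all germ cells. This call was lost with DESeq2, without the cKO library and without the control library. The somatic cells of the Tomato-negative, cKO and control libraries held 2, 3 and 0 UMIs of Adamts20, and the interval of its germ over somatic ratio left out 1 in the cKO library alone. Adamts17 had 8.59 CPM in late spermatocyte-like cells of the Tomato-negative and 7.15 CPM in those of the control library, but its log2 difference of 1.71 ± 0.70 did not pass the threshold (adjusted p = 0.0589 by edgeR).

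**Figure D4:**
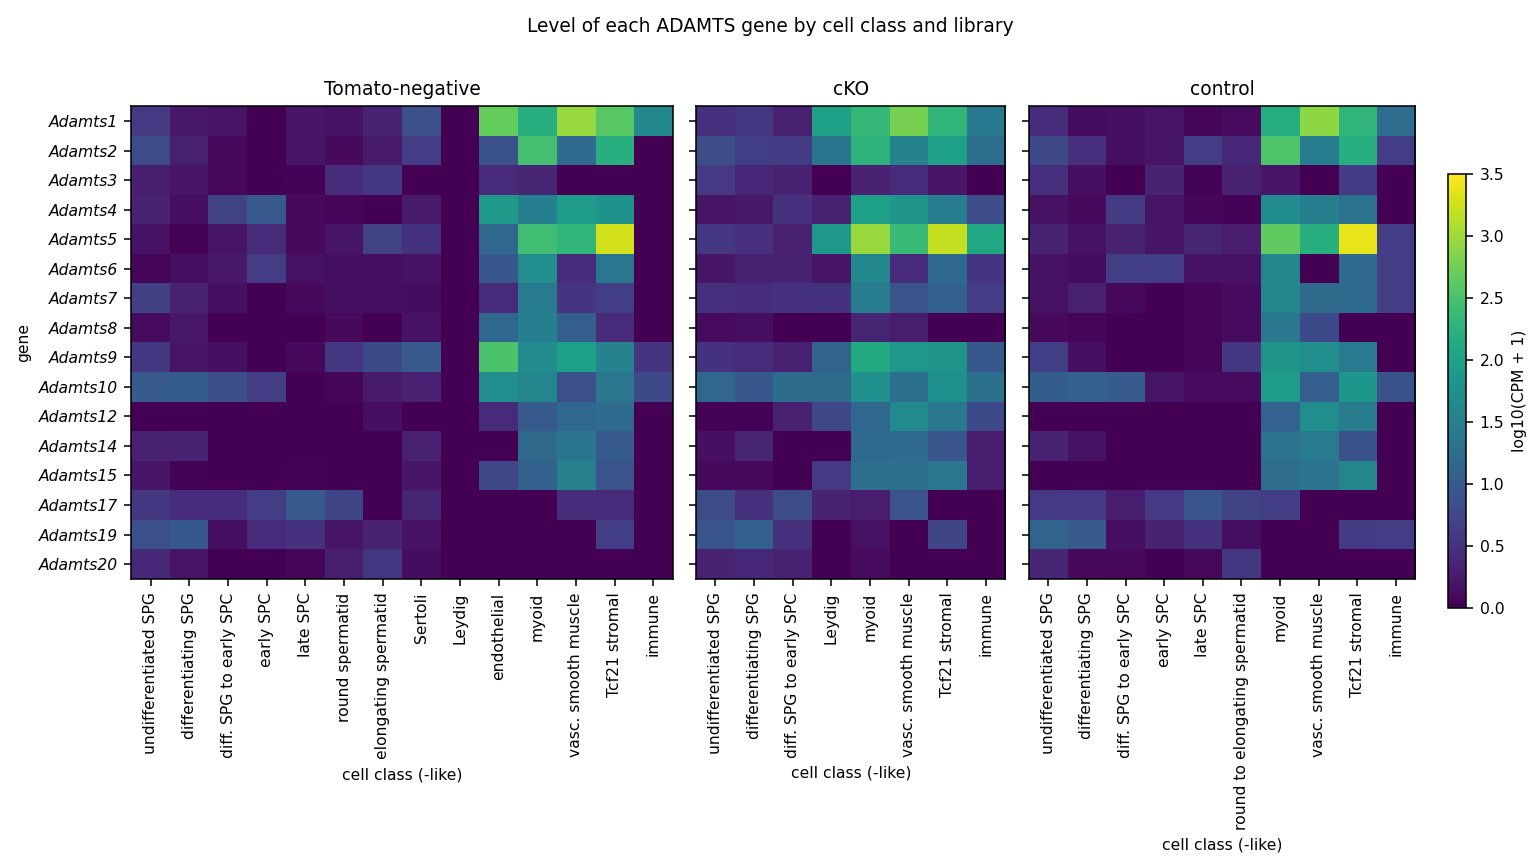
Level of each ADAMTS gene with at least 100 UMIs (rows) by cell class (columns) in the Tomato-negative, cKO and control libraries, coloured by log10(CPM + 1). Adamts5 peaks in Tcf21 stromal-like cells at 1542 to 2344 CPM, Adamts1 in vascular smooth muscle-like cells at 613 to 901 CPM and Adamts2 in myoid-like cells at 184 to 340.4 CPM.

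The partners of these proteases were compared in the same germ against somatic test, in which 30.3% of all genes were higher and 19.9% lower in germ cells. Of 12 chaperones and partners of sperm ADAMs, 10 were higher in germ cells, 1 was lower and 1 did not pass. They included Clgn, the calmegin chaperone that fertilin needs to fold, at 5.09 ± 0.54 on the log2 scale (adjusted p = 2.13e-05 by edgeR), Tex101, which sperm ADAM3 depends on in mice, at 5.11 ± 0.54 (adjusted p = 2.10e-05 by edgeR), and Pdilt at 3.59 ± 0.74. Clgn was also among the markers that named the late spermatocyte class. Ace was lower in germ cells, by 2.44 ± 0.82 on the log2 scale, and Tpst2 did not pass. Of 5 inhibitors, 4 were lower in germ cells, with Timp3 at -7.45 ± 0.64, Timp2 at -5.52 ± 0.55, Timp1 at -5.37 ± 0.69 and Reck at -1.63 ± 0.50, and Timp4 did not pass. Of 8 tested iRhom and tetraspanin partners of the sheddases, Tspan33 (3.64 ± 0.54) and Frmd8 (1.78 ± 0.47) were higher in germ cells, Rhbdf1 (-5.17 ± 0.67) and Tspan17 (-3.73 ± 0.59) were lower, and 4 did not pass, shares near those of all genes.

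Of 10 matrix substrates of ADAMTS enzymes, 6 were lower in germ cells, beside 19.9% of all genes tested. Among them were Col1a2 at -8.79 ± 0.56, Col3a1 at -8.27 ± 0.76 and Vcan, the proteoglycan versican, at -5.36 ± 0.75. Col1a1 and Vwf, also lower, were among the markers that named the stromal and endothelial classes. The substrate genes Comp and Ncan were higher in germ cells, by 3.35 ± 0.55 and 3.18 ± 0.97, beside 30.3% of all genes tested. Of 5 tested ADAMTS-like relatives without a protease domain, Adamtsl1, Adamtsl2 and Adamtsl4 were lower in germ cells, beside the same 19.9% of all genes. Adamtsl5 and Papln did not pass.

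The last comparison set the cKO library against the control library within each class that had at least 30 cells in both. A ratio of CPM with its exact conditional binomial 95% interval describes these 2 libraries, and members with at least 20 UMIs over both were taken. In differentiating spermatogonia-like cells, 9 of 28 members were at least 2-fold higher in the cKO library, beside 19.5% of all genes, and 10 were at least 2-fold lower, beside 16.7%. In undifferentiated spermatogonia-like cells, 4 of 24 were higher, beside 2.90%, and 4 were lower, beside 5.19%. In the class between differentiating spermatogonia and early spermatocytes, 0 of 13 were higher, beside 16.0%, and 8 were lower, beside 14.5%. In myoid-like cells, 3 of 26 were higher, beside 4.73%, and 7 lower, beside 7.37%. In vascular smooth muscle-like cells, 1 of 14 was higher, beside 8.51%, and 0 were lower, beside 6.31%. Sertoli markers also scored high in the cluster of this class. In Tcf21 stromal-like cells, 1 of 21 was higher, beside 8.98%, and 2 were lower, beside 9.90%. In immune-like cells, 6 of 13 were higher, beside 11.7%, and 1 was lower, beside 9.83%. These counts add 0.5 to each count. Against a floor of 3 UMIs, Adam8 in immune-like cells and Adam18 and Adam30 in the class between differentiating spermatogonia and early spermatocytes, which had 0 UMIs in 1 of the libraries, do not reach 2-fold, and 5 higher and 6 lower members are left in these classes. The median ratio of the members lay between 0.334 in the class between differentiating spermatogonia and early spermatocytes and 1.82 in immune-like cells, and that of all genes between 0.943 and 0.989.

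The name of the differentiating spermatogonia-like class was only partly borne out in the cKO library. Its 1227 cells, of 2492 named cKO germ cells, summed to 686 CPM of the 12 undifferentiated spermatogonia markers, against 97.7 CPM in the control library, and to 700.1 CPM of the 10 differentiating spermatogonia markers, against 986 CPM. The undifferentiated class had 1038 and 826 CPM of the first list and 602 and 920 CPM of the second in the cKO and control libraries. Class names were rebuilt here, so these cells may not be those that the study calls differentiating spermatogonia, and the ratios below compare cells of unlike marker levels.

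The lower values in cKO spermatogonia were mostly those of the late germ cell ADAMs. In differentiating spermatogonia-like cells Adam2 had 0.0901 CPM in the cKO library and 10.3 CPM in the control library, a ratio of 0.0087 (0.0010 to 0.032). Adam5 had 0.270 and 17.9 CPM in the cKO and control libraries, Adam3 0.451 and 22.4 CPM and Adam1b 0.180 and 4.20 CPM, with ratios of 0.015, 0.020 and 0.043. In myoid-like cells Adam32 had 1.03 and 22.0 CPM, a ratio of 0.047 (0.023 to 0.087). Markers of late germ cells moved with these genes. In differentiating spermatogonia-like cells all 12 late spermatocyte markers had counts in both libraries and summed to 216 CPM in the cKO and 605 CPM in the control library, and the 12 elongating spermatid markers summed to 17.2 and 278 CPM. In myoid-like cells the late spermatocyte markers summed to 372 and 811 CPM, with Piwil1 at 0 in the cKO library. Their part in these ratios was not tested.

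Other members of the germ cells also differed. In differentiating spermatogonia-like cells the cKO library had 2.61 CPM of Adamts1 against 0.317 CPM in the control library, a ratio of 8.24 (3.05 to 31.2) from 58 and 4 UMIs. Adamts20 had 1.53 and 0.238 CPM, a ratio of 6.44 (2.02 to 32.8), and Adam19 0.946 and 0.0793 CPM, a ratio of 11.9 (1.92 to 493) from 21 UMIs and 1 UMI. Adam23 had 11.4 and 4.92 CPM, a ratio of 2.33 (1.76 to 3.12), and Adam10 36.9 and 100.3 CPM, a ratio of 0.367. In the same class the 9 myoid markers to 132 and 27.6 CPM and the 10 Tcf21 stromal markers to 37.3 and 8.65 CPM. Adam23 was higher in undifferentiated than in differentiating spermatogonia-like cells of all 3 libraries. The part of these cells in the ratios was not tested. The class held 1589 control cells, and its 1227 cKO cells depended on the clustering: it kept 177 with doublets removed, 129 with a limit of 3500 detected genes and 81 without integration of the libraries. Without integration the directions of Adam23 and Adam10 turned round, to ratios of 0.495 and 1.06, and with doublets removed Adamts1 had 4 and 2 UMIs, Adamts20 5 and 2 UMIs and Adam19 0 UMIs in the cKO and control libraries.

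In the somatic classes, Adamts8 and Adam33 were lower and Adamts5, Adamts4 and Adamts9 higher in cKO myoid-like cells. Adamts8 had 1.28 CPM in the cKO and 24.5 CPM in the control library, a ratio of 0.052 (0.028 to 0.092), and 31.4 CPM in myoid-like cells of the Tomato-negative library. Adam33, a sheddase gene known from airway smooth muscle, had 1.97 and 23.6 CPM in the cKO and control libraries, a ratio of 0.083, and 15.04 CPM in the Tomato-negative library. Both genes were thus lower in the cKO library than in each of the other libraries. Adamts9 had 131 and 63.3 CPM, a ratio of 2.07 (1.78 to 2.40), Adamts5 911 and 447 CPM, a ratio of 2.04, and Adamts4 100.5 and 49.6 CPM. Adamts2 was at 184 and 340.4 CPM, a ratio of 0.539. The 9 myoid markers summed to 19137 and 22349 CPM and the 10 Tcf21 stromal markers to 3065 and 2796 CPM in these cells.

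In immune-like cells Adamts5 had 121 CPM in the cKO library, from 148 UMIs, and 3.35 CPM in the control library, from 1 UMI, a ratio of 36.3 (6.41 to 1442). The UMIs were spread over 8.06% of the cKO immune-like cells. The Tcf21 stromal markers summed to 1099 CPM in the cKO and 73.6 CPM in the control immune-like cells, with 9 and 7 of 10 markers counted, and the myoid markers to 1203 and 381 CPM. With doublets removed, Adamts5 had 4 UMIs in 285 cKO and 0 in 140 control immune-like cells, too few for a ratio. Adam8 had 23 UMIs in cKO immune-like cells and 0 in those of the control library, which made it at least 1.88-fold higher against a floor of 3 UMIs.

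**Figure D5:**
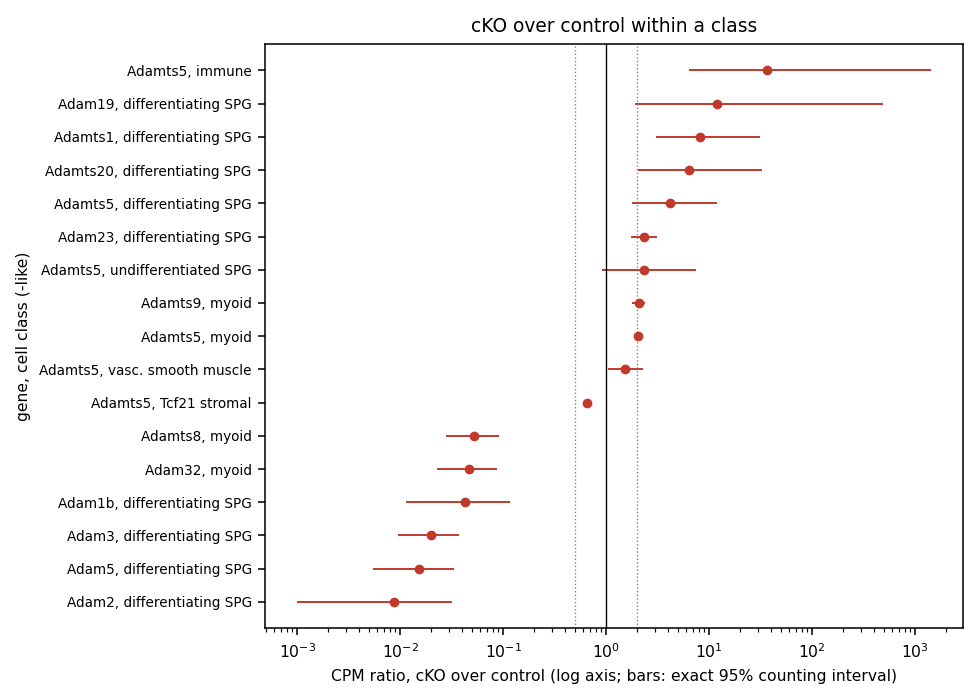
Ratio of CPM in the cKO over the control library (x axis, log scale, bars are exact 95% counting intervals) for the named members and classes (rows), with dotted lines at 2-fold. Adamts5 in immune-like cells is at 36.3 and Adam2 in differentiating spermatogonia-like cells at 0.0087.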

How the data were processed

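Testicular cells of 3 libraries were measured by droplet single-cell RNA sequencing. Per the submitters' processing notes, the authors made the deposited UMI counts per gene and cell with Cell Ranger 2.1.1 on GRCm38, with no normalization, and used Seurat 3.1. The merged file holds 7626 Tomato-negative cells, which were used here, together with all control cells and 149 cKO cells, which were taken from their own files. Cells with over 200 and under 7500 detected genes and under 10% mitochondrial counts were kept. The study's methods state an upper limit of 3500 unique counts, taken here as 3500 detected genes in an alternative. It was not taken first because the stated numbers of kept cells lie nearer those that 7500 leaves. Counts were clustered in Seurat 5.3.0 on R 4.3.3 with 2000 variable genes, without the members, and at the component numbers and resolutions of the study's methods. A class needed at least 3 markers. Doublets called by Scrublet were left in. Unnamed clusters held 2.52% of Tomato-negative, 4.23% of cKO and 7.03% of control cells.

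Counts were summed per class and library. Germ and somatic sums were compared with edgeR 4.0.16, with the library as a block since both sums come from the same animals (deviations of the 2 sums correlated at 0.368, 0.494 and 0.226 in the Tomato-negative, cKO and control libraries). DESeq2 1.42.0 was an alternative. On simulated counts for this comparison, with 22412 genes, 78% of those raised 4-fold and 70% of those lowered 4-fold were recovered. The simulated sums shared the same mean profile at a fixed dispersion, without differences between libraries. These shares therefore do not give the power of the test in the real libraries. The p-values cover the spread between 3 libraries, of which the Tomato-negative one differs from the others in genotype, age and sort. The cKO and control libraries were compared in classes that held 30 or more cells of each, with 0.5 added to each count before the 2-fold call.

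The members and lists were chosen with earlier results of these data known. Values are given for members with at least 100 UMIs. Full statistics are given for up to 10 members with the largest difference each way, for up to 6 cKO ratios each way ordered by the interval bound nearest to no change, and for up to 6 partners each way. Other members named with cKO ratios were chosen after their values were seen. Positions were matched to the mouse annotation for 52 of 52 members, and promoters are from RefSeq.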

Additional observations from a re-analysis of the deposited data

Results flagged for a closer look

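The values here were set apart because libraries or classes of this series moved in opposite directions for the same gene. None of these differences was tested, since each condition is 1 library. Adam4 had a germ over somatic ratio of 3.68 in the Tomato-negative, 0.271 in the cKO and 2.67 in the control library, and it was the only member with opposite directions there by this rule. The cKO ratio rests on 12 germ and 27 somatic UMIs. Adam4 was highest in spermatids of the other libraries, and the 20 spermatid-like cells of the cKO library held 0 UMIs of it.

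The other values are ratios of cKO over control whose intervals lay on opposite sides of 1 in different classes. Adamts5 had 4.17 in differentiating spermatogonia-like, 2.04 in myoid-like, 36.3 in immune-like, 1.51 in vascular smooth muscle-like and 0.658 in Tcf21 stromal-like cells. The value in immune-like cells rests on 148 cKO UMIs, of which 4 were left with doublets removed. Adamts1 had 8.24 in differentiating spermatogonia-like and 1.47 in myoid-like cells, but 0.764 in the vascular smooth muscle class. Adamts2 had 1.66 in differentiating spermatogonia-like, 0.539 in myoid-like and 0.625 in Tcf21 stromal-like cells. Adam33 had 2.47 in undifferentiated spermatogonia-like and 0.0834 in myoid-like cells, and Adamts7 4.60 and 0.763 in these classes. Adamts10 had 1.41 in undifferentiated spermatogonia-like, 0.701 in differentiating spermatogonia-like and 0.711 in myoid-like cells. Adam15 had 2.60 in immune-like cells, 0.526 in the vascular smooth muscle class and 0.611 in differentiating spermatogonia-like cells. Adamts19 had 0.582 in undifferentiated and 1.26 in differentiating spermatogonia-like cells.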

How the results depend on the processing

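The count of 21 members higher in germ cells held at 21 or 22 in 8 alternatives, DESeq2 among them, but was 3 with a limit of 3500 detected genes, 4 with no replicate block, and 7 to 18 when 1 library was left out (lowest without the control library). The 19 members higher in somatic cells became 18 with no replicate block and 14 to 21 without 1 library. Of 40 called members, 13 were called in all 14 settings, each of them higher in somatic cells and none in germ cells, and 0 reversed. The summed germ cell level of the reproductive ADAMs averaged 1249 CPM, 266 with the limit of 3500 and 532 with cells thinned to 1000 UMIs. The 56 member and class pairs with a cKO over control ratio past 2-fold became 35 with the limit of 3500 and 25 after thinning. They rose to 72 with no upper limit on detected genes and to 74 with a 5% mitochondrial limit, and were 46 to 51 in the other alternatives. Of 65 ratios whose interval left out 1 and that had a value in an alternative, 10 turned round in at least 1 (0.5 added to each count, the cause not tested). Without integration these were Adam33 (0.926), Adamts10 (0.922) and Adamts19 (1.03) in undifferentiated spermatogonia-like cells, Adam10 (1.06), Adam11 (1.36), Adam15 (1.02), Adam17 (1.32), Adam23 (0.495) and Adamts19 (0.644) in differentiating spermatogonia-like cells, and Adam10 (1.13) in the class that follows. Adam10 in that class was at 1.29 with the limit of 3500, and Adam17 in differentiating spermatogonia-like cells at 1.07 with a 5% mitochondrial limit, an alternative chosen after seeing the data. The ratios in myoid-like cells named above for Adamts8, Adam33, Adamts5, Adamts9, Adamts4 and Adamts2 kept their direction in every alternative that gave them a value. With 1 library per condition, depth bounds counting error only.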

Other observations

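A few late germ cells of the cKO library were too few for a comparison by class, and their levels are given as values. In 16 late spermatocyte-like cells of the cKO library, Adam3 had 874 CPM (812 to 939, from 737 UMIs), Adam5 665 CPM, Adam32 574 CPM and Adam2 408 CPM. In late spermatocyte-like cells of the control library these 4 genes had 807, 708, 569 and 459 CPM. Adam1b, Adam18 and Adam30 had 183, 153 and 148 CPM in the cKO cells. In 20 cKO cells of the class of round to elongating spermatids, Adam3 had 805 CPM (721 to 897), Adam5 486 CPM, Adam32 346 CPM and Adam2 184 CPM. The testase genes Adam26a and Adam24 had 46.0 and 36.3 CPM in these cells, and Adam20 had 33.9 CPM.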
